A study of Mus musculus with 5 samples.

Results

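Ctgf, Cyr61 and Ankrd1 are among the genes most often read as direct targets of the transcriptional coactivator YAP. Occupancy around them was taken from 4 deposited lists of peaks from chromatin immunoprecipitation followed by sequencing (ChIP-seq), in mm9 coordinates. All peaks whose summit fell in chr10:24215000-24420000 for Ctgf, chr3:145210000-145415000 for Cyr61 and chr19:36085000-36295000 for Ankrd1 were kept, whatever their height. These windows reach about 100 kb to either side of the gene starts, which lie near positions 24315200, 145313000 and 36194300 and are rounded, so distances from a start carry an error of about 100 bp. The windows held 91 of the 122868 peaks of the 4 lists. They were 16 of 10293 YAP peaks, 34 of 48571 TEAD peaks, 9 of 14354 Myc peaks and 32 of 49650 RNA polymerase II (RNAPol2) peaks.

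The cells were 3T9MycER;YAP, immortalized mouse embryonic fibroblasts with the genotype 3T9MycER in the labels. They express MycER, a Myc protein that is switched on by 4-hydroxytamoxifen (OHT), and carry a transduced doxycycline-inducible vector for YAPS127A, a YAP mutant that the Hippo kinases cannot restrain at that residue. All 4 ChIP samples received both 400 nM OHT and 2 µg/ml doxycycline, and the cells were quiescent and confluent. Each antibody was used on 1 sample, YAP chromatin received a second crosslinker besides the 1% formaldehyde used for the other factors, and the labels do not separate the cells' own Myc and YAP from the introduced forms. No sample without the treatments was analysed here, so the values describe 1 state of the cells and no response to it.

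YAP has no DNA-binding domain of its own and reaches chromatin chiefly through the TEAD family, which recognizes the letters CATTCC or, on the other strand, GGAATG. When the Hippo pathway is active, the LATS kinases phosphorylate YAP and hold it in the cytoplasm. Ctgf (Ccn2 in RefSeq) and Cyr61 (Ccn1) encode secreted proteins of the CCN family that bind integrins and growth factors in the extracellular matrix of fibroblasts, and Ankrd1 encodes an ankyrin repeat protein of the nucleus and the sarcomere, best known from striated muscle. Myc binds DNA at E-boxes (CACGTG), and RNAPol2 transcribes all 3 genes.

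Of the 3 genes, Cyr61 and Ankrd1 matched the promoter table and Ctgf did not. These promoters are shown for the TEAD letters they hold near the start. They are the RefSeq sequences of GRCm38.p6, 5′ to 3′ along the gene, with 250 bases before the start and 50 from it on, and the capitals mark the TEAD letters.
Cyr61: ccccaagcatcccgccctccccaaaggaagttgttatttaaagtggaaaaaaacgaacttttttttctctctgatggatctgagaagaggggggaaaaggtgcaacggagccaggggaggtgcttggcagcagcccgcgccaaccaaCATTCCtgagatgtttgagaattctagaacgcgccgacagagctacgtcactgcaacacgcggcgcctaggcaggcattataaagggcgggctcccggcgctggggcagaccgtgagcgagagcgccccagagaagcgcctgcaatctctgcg
Ankrd1: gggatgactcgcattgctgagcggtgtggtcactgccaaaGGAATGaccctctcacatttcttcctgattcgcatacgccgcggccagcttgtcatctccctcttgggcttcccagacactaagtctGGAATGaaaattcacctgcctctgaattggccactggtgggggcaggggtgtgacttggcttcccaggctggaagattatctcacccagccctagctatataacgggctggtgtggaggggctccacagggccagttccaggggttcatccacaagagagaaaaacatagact

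The Cyr61 promoter held 1 copy, as CATTCC, 98 to 103 bases upstream of the start, and a TATA box (TATAAA) at 20 to 25 bases upstream. Ankrd1 held 2 copies of GGAATG, at 118 to 123 and 205 to 210 bases upstream. Searched on both strands, GGAATG occurred in 14.6% of the 32544 promoters of this length in the table, and in 1.36% at least 2 times. TATAAA occurred in 13.6% of them. Other forms of the TATA box were not searched, such as the TATATAA in the printed Ankrd1 sequence. Neither sequence held the E-box CACGTG (7.17% of promoters), the AP-1 letters TGANTCA (7.79%) or the CArG box bound by SRF (1.64%). Of a list of 19 further YAP pathway and target genes, 13 were in the table and 5 held GGAATG, namely Amotl2, Axl, Crim1, Lats2 and Ptpn14. A match describes letters and not binding.

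**Figure D1:**
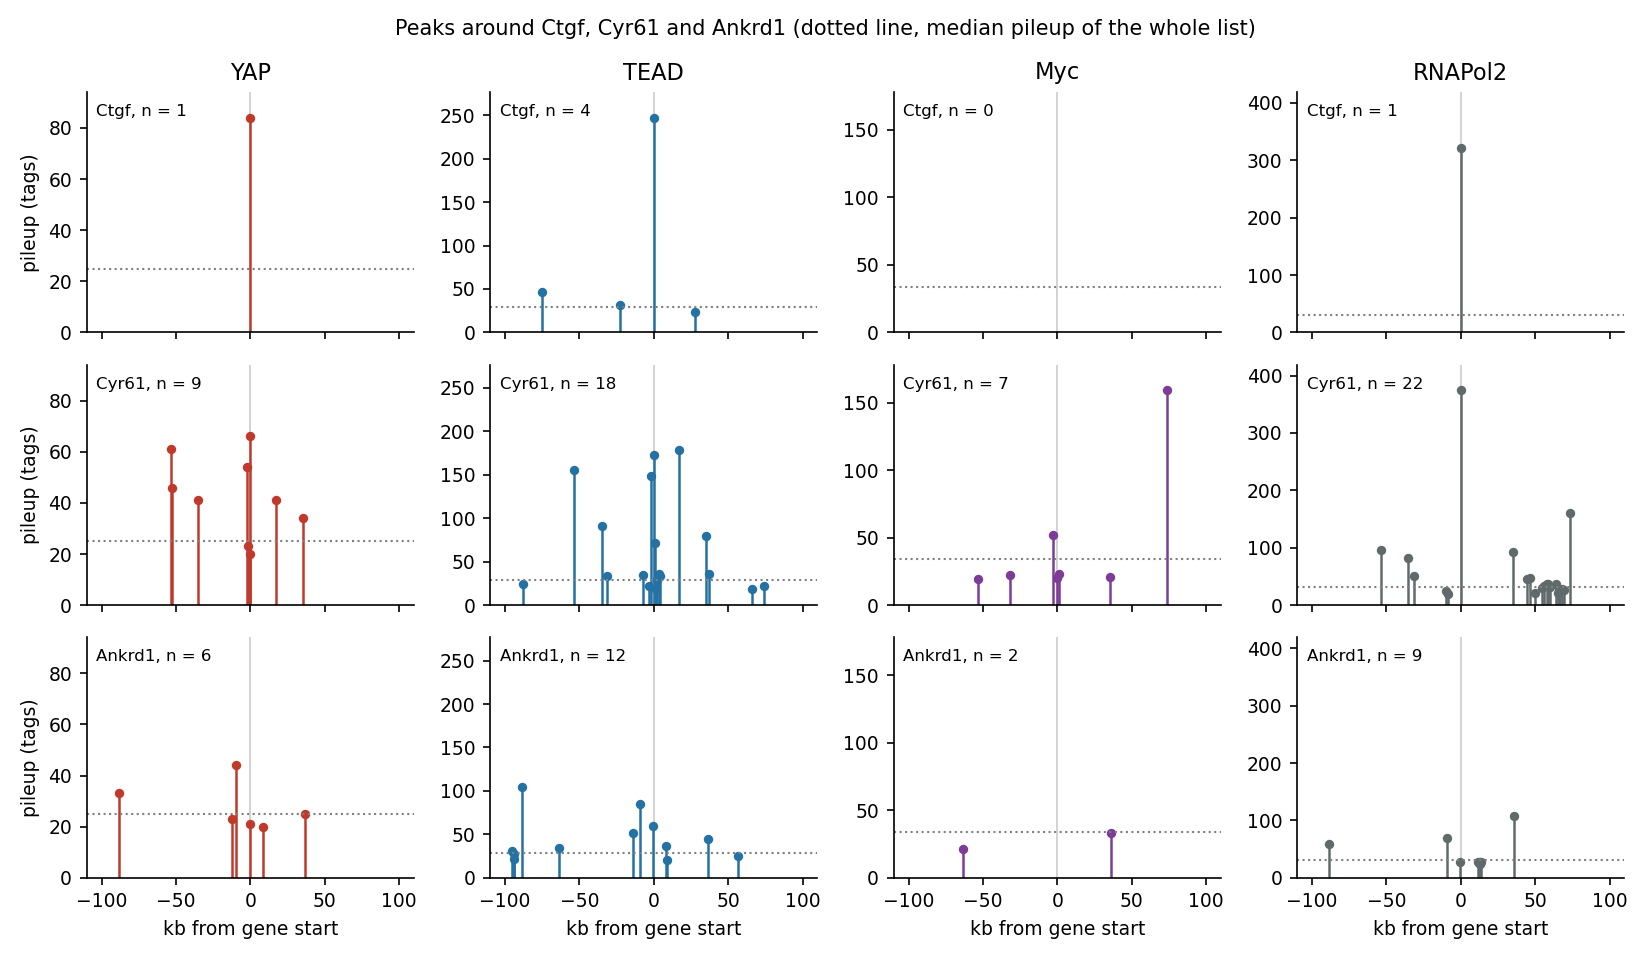
Pileup (tags at the summit, linear axis) of every peak in the Ctgf, Cyr61 and Ankrd1 windows against the distance of its summit from the gene start in kb, with upstream negative, for YAP, TEAD, Myc and RNAPol2. Dotted lines give the median pileup of the whole list. Ctgf shows 1 YAP peak, at the start, whereas 9 YAP peaks lie around Cyr61 and 6 around Ankrd1.

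Ctgf carried a single YAP peak, and it lay on the gene start. This peak, chr10:24314974-24315349, had its summit 25 bp upstream of the start and a pileup (the number of extended tags stacked at the summit) of 84, with an exact 95% Poisson interval of 67.0 to 104. Intervals of this kind cover counting error only, and amplified reads without molecular identifiers are not independent molecules. It ranked 179 in the YAP list, where 1.79% of peaks were as high or higher. The TEAD peak under it, chr10:24314610-24315656, had a pileup of 247 (217 to 280), rank 110 in its list (0.226% as high or higher), and the 2 summits were 15 bp apart.

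The other 3 TEAD peaks of the Ctgf window were far lower than that at the start and held no YAP. Their pileups were 46 at 75.1 kb upstream, 32 at 22.6 kb upstream and 24 at 27.4 kb downstream. RNAPol2 had 1 peak, chr10:24314975-24320249, which spanned the start and was 5275 bp wide, most of it downstream, with a pileup of 321 (287 to 358). By pileup 0.288% of RNAPol2 peaks were as high or higher, and 1.34% were as wide or wider. No Myc peak was called in the window. The lowest pileup in the Myc list was 14, and weaker signal would not be listed. Peaks were called against a local background, so higher signal could also go unlisted where that background was raised. In the other 3 lists the background at the Ctgf start was above the lowest of the list.

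Ctgf was also isolated along the chromosome. The nearest YAP peak outside the window was 198 kb from the start with a pileup of 36, the nearest Myc peak 274 kb and the nearest RNAPol2 peak 275 kb. Within 100 kb of the Ctgf YAP peak there was no other YAP peak, which held for 20.7% of the YAP list. The same count for RNAPol2 was 0, against a median of 16 in its list, where 2.19% of peaks had none.

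Cyr61 was covered by a series of YAP and TEAD peaks on both sides of its start. The YAP peak at the start, chr3:145312916-145313238, had a pileup of 66 (51 to 84), rank 351, with 3.58% of the list as high or higher. A second, low YAP peak of pileup 20 followed it at chr3:145313300-145313509. The TEAD peak that spanned both, chr3:145312650-145313873, had a pileup of 173 (148 to 201), with 1.11% of the TEAD list as high or higher. Its summit was 14 bp from that of the higher YAP peak.

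The remaining 7 YAP peaks of the Cyr61 window had pileups of 23 to 61. Upstream they stood at 1.5 kb (pileup 23), 1.95 kb (54), 34.9 kb (41), 52.9 kb (46) and 53.5 kb (61). Downstream they stood at 17 kb (41) and 35.3 kb (34). All 9 YAP peaks overlapped TEAD, but they lay on 6 TEAD peaks, since the start, the region at 1.95 kb and that at 53.5 kb each held a pair. They are therefore not 9 separate TEAD sites.

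The highest TEAD peak of the Cyr61 window was not at the start. It was chr3:145295702-145296404, 17 kb downstream, with a pileup of 179 (154 to 207), and its interval overlapped that of the start peak. TEAD pileups were 156 at 53.5 kb upstream, 149 at 1.94 kb upstream, 91 at 34.9 kb upstream and 80 at 35.2 kb downstream. At 0.862 kb downstream a TEAD peak of 72 held no YAP, and it was the highest TEAD peak without YAP in the 3 windows.

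Myc was present at Cyr61 in 7 peaks, most of them low. The one at the start, chr3:145312634-145313126, had a pileup of 20 (12.2 to 30.9), and 93.1% of the Myc list was as high or higher. A peak of 52 (38.8 to 68.2) lay at 3.18 kb upstream, chr3:145315885-145316821, with TEAD of 22 and without YAP. The highest, 159 (135 to 186), lay 73.8 kb downstream at chr3:145238961-145239886, with TEAD of 22 and RNAPol2 of 160 and no YAP. The peaks were not assigned to genes, and in the gene table the next protein-coding gene in that direction is Znhit6.

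RNAPol2 at Cyr61 formed 1 of the broadest peaks of its list. It covered chr3:145306935-145321344, or 14410 bp, and 44 of the 49650 peaks (0.0886%) were as wide or wider. Its pileup was 374 (337 to 414), rank 48, with 0.103% of the list as high or higher. Within it lay 4 YAP, 9 TEAD and 3 Myc summits. The 22 RNAPol2 peaks of the window also included 16 at 35.4 kb to 73.8 kb downstream, with pileups of 22 to 160.

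Ankrd1 differed from both CCN genes in that no YAP or RNAPol2 peak at its start stood high in its list. The YAP peak there, chr19:36194315-36194714, began 15 bp from the start and had a pileup of 21 (13.0 to 32.1), and 77.8% of the YAP list was as high or higher. TEAD at the start, chr19:36194098-36194842, had a pileup of 60 (45.8 to 77.2), with 14.1% of its list as high or higher. RNAPol2 had a peak of 27 (17.8 to 39.3) with its summit 0.264 kb upstream, and 68.7% of the list was as high or higher. No Myc peak was called there.

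The highest YAP peak of the Ankrd1 window lay 9.57 kb upstream. This peak, chr19:36203674-36204455, had a pileup of 44 (32.0 to 59.1), and 11.8% of the list was as high or higher. TEAD there had a pileup of 85 (67.9 to 105) and RNAPol2 one of 69 (53.7 to 87.3). YAP pileups were 33 at 88.3 kb upstream, 25 at 36.5 kb downstream and 20 at 8.45 kb downstream. A YAP peak of 23 at 12.2 kb upstream overlapped no peak of the other 3 lists, the only such YAP peak in the 3 windows.

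TEAD in the Ankrd1 window was highest 88.3 kb upstream, at chr19:36282208-36283011, with a pileup of 104 (85.0 to 126). A TEAD peak of 52 at 14.2 kb upstream held no YAP. RNAPol2 was highest 36.1 kb downstream, with 108 (88.6 to 130), where a Myc peak of 33 also lay. The other Myc peak had a pileup of 21, at 63.5 kb upstream. By order of starts in the gene table, the next protein-coding genes are Pcgf5 on the upstream and Rpp30 on the downstream side. Whether the distal peaks belong to them or to Ankrd1 cannot be told apart here.

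By pileup at the gene starts, Ankrd1 was lowest for YAP, TEAD and RNAPol2, and Ctgf and Cyr61 had separate intervals for TEAD only. YAP pileup was highest at Ctgf (84), next at Cyr61 (66) and lowest at Ankrd1 (21). The intervals of the first 2 overlapped, and that of Ankrd1 lay below both. TEAD gave the same order, 247, 173 and 60, and no interval overlapped another. For RNAPol2, Cyr61 (374) stood above Ctgf (321) with overlapping intervals, and Ankrd1 (27) stood far below. Pileup is a height at 1 base, so these levels do not depend on gene length, and they were compared within a list only.

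**Figure D2:**
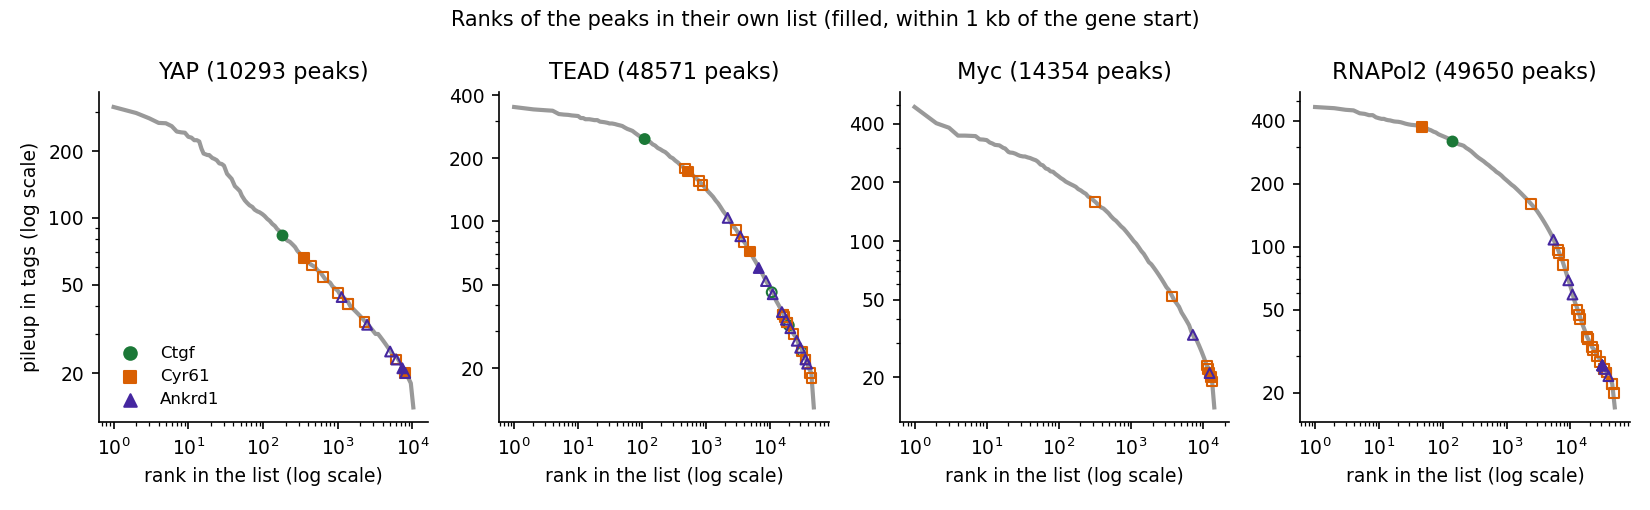
Pileup of every peak against its rank in its own list (both axes logarithmic) for the 4 antibodies, with the peaks of the Ctgf, Cyr61 and Ankrd1 windows marked and those within 1 kb of the gene start filled. In the YAP and TEAD lists the filled Ctgf peak and the higher of the 2 filled Cyr61 peaks lie near the top, while the Ankrd1 start peak and, for YAP, the second Cyr61 peak (pileup 20) lie further down.

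Pooled over the windows, more of the YAP and TEAD peaks than of the Myc peaks lay in the upper part of their list. Choosing genes known as YAP targets may by itself raise these YAP and TEAD shares, and peaks of the same window are not independent. Of the 16 YAP peaks, 10 were above the median pileup of the list (25), against 48.8% of the whole list, and 5 were in its highest 10%, at 46 or more. Most of those above the median were at Cyr61, with 7 of its 9, beside 1 of 1 at Ctgf and 2 of 6 at Ankrd1. The median YAP pileup of the Ankrd1 window, 24, lay below that of the list. Of the 34 TEAD peaks, 23 were above the median of 29 (47.9% of the list) and 10 were in the highest 10%. Of the 9 Myc peaks, 2 were above the median of 34 (48.5%) and 1 was in the highest 10%. RNAPol2 had 17 of 32 above its median of 31 (48.7%) and 3 in the highest 10%, the share of the windows above the median being close to that of the list.

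The measure of height moved these ranks. By fold enrichment, which divides the pileup by a local background from the control library, the Cyr61 YAP peak (18.0) stood above the Ctgf one (17.2), and 2.41% and 2.76% of the list were as high or higher. The control level of a peak, its pileup over its fold enrichment, was 1.52 times the lowest of the YAP list at Ctgf and 1.15 times at the Cyr61 start. The median over all YAP peaks was 1.46 on chromosome 10, 1.17 on chromosome 3 and 1.15 in the whole list. The TEAD peaks at the 2 starts, 247 and 173 by pileup, had fold enrichments of 51.6 and 48.1. RNAPol2 at Ctgf showed the widest gap. By fold enrichment (22.9, against 69.4 at Cyr61), 8.56% of the list was as high or higher, and its control level was 2.94 times the lowest, a value that 73 RNAPol2 peaks (0.147%) reached. The part of the control in these ranks was not tested.

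**Figure D3:**
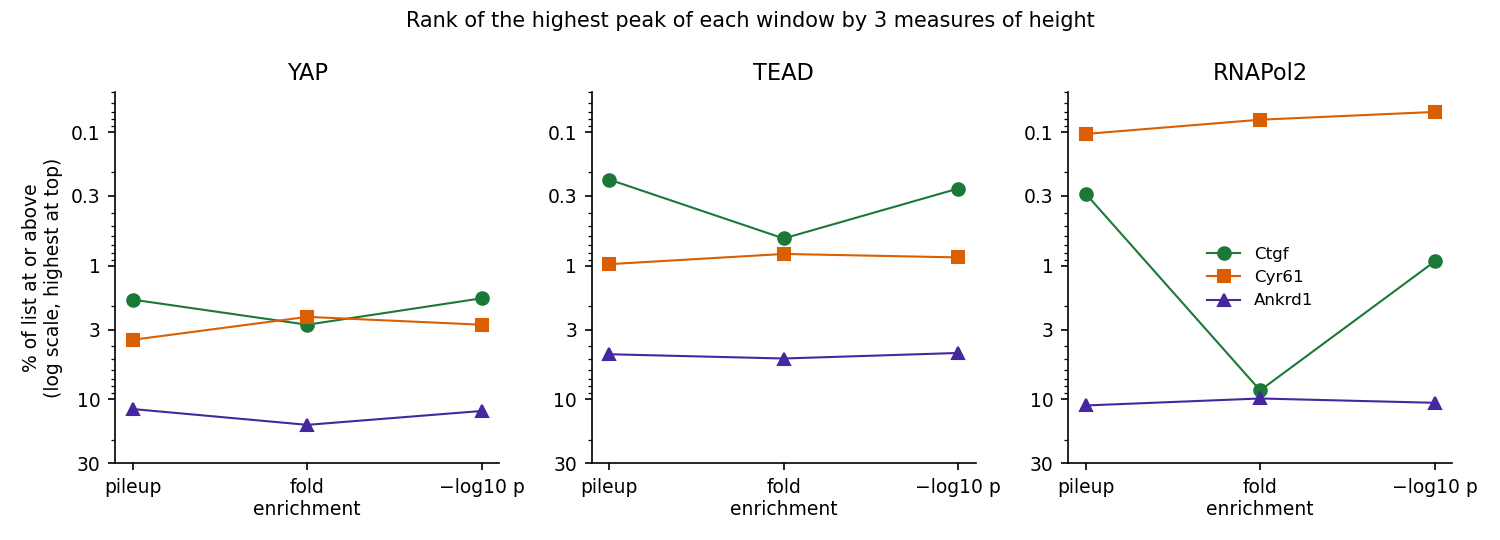
Percent of the list as high or higher (logarithmic axis, smaller values at the top) for the highest peak of each window by pileup, by fold enrichment and by −log10 p. YAP at Ctgf moves between 1.75% and 2.76% and at Cyr61 between 2.41% and 3.58%, while RNAPol2 at Ctgf falls from 0.288% by pileup to 8.56% by fold enrichment.

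YAP sat where TEAD was high. TEAD peaks with YAP in the windows had a median pileup of 97.5 (37 to 247, 12 peaks), and those without YAP one of 30 (18 to 72, 22 peaks). The whole TEAD list showed medians of 66 and 26. At the 15 YAP peaks with TEAD, the median distance between the summits was 32 bp, against 43 bp over 9426 such YAP peaks of the list. The closest pairs were 7 bp apart, at 1.95 kb upstream of Cyr61 and 9.57 kb upstream of Ankrd1.

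YAP height was then read against YAP peaks of like TEAD height, where the smaller of the 2 TEAD pileups was at least 80% of the larger. At Ctgf YAP was 84 beside a median of 75 for 325 such peaks (quartiles 56 and 98), and 40.3% were as high or higher. At the Cyr61 start YAP was 66 beside a median of 49 (38 and 61), with 18.3% as high or higher. At the Ankrd1 start it was 21 beside 24, with 79.9% as high or higher. The Ankrd1 peak at 9.57 kb upstream had 44 beside a median of 29 (24 and 34), and 6.65% were as high or higher. Of all 15 YAP peaks with TEAD, 6 stood above the upper quartile of peaks of like TEAD height, 7 within the quartiles and 2 below the lower one. Those below were the second peak at the Cyr61 start, 20 beside a median of 49, and the Cyr61 peak at 1.5 kb upstream, 23 beside 42, each the lower of a pair on 1 TEAD peak.

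A TEAD peak of the height at the Ctgf start nearly always held YAP. Among TEAD peaks of like height the share with a YAP peak was 98.7% for Ctgf, 96.9% for the Cyr61 start and 45.9% for the Ankrd1 start.

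**Figure D4:**
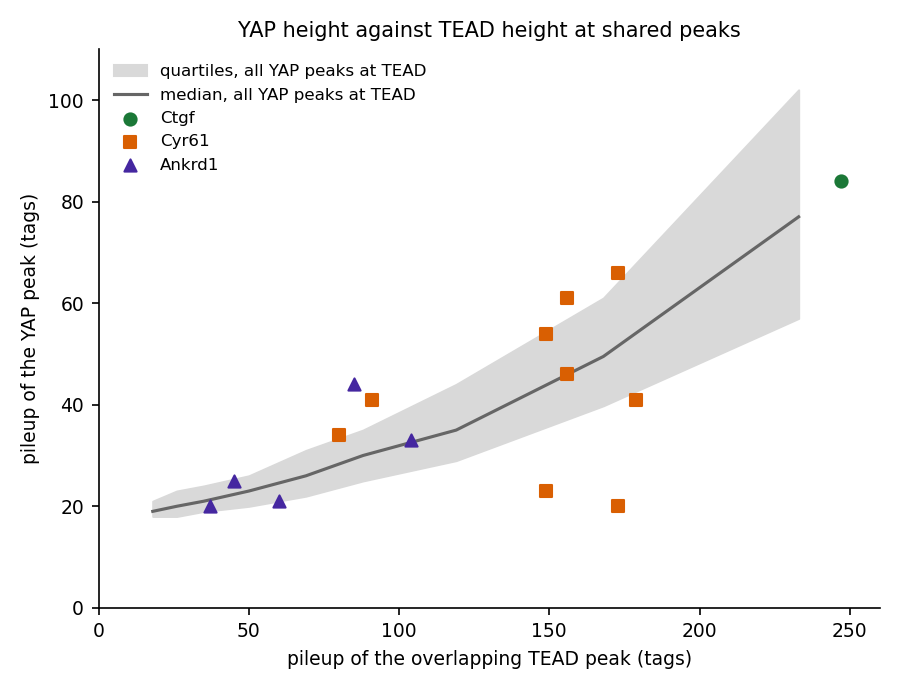
YAP pileup against the pileup of the overlapping TEAD peak for the YAP peaks with TEAD in the 3 windows (coloured). The line gives the median YAP pileup per class of TEAD pileup over all YAP peaks with TEAD. The grey band lies between the lower and upper quartiles of each class, so many peaks of the list fall outside it. The Ctgf peak lies near the line at the upper right, and the Ankrd1 start peak lies near it at the lower left.

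Overlap between the lists was counted at 1 bp or more. Of the 16 YAP peaks in the windows, 15 overlapped TEAD, or 93.8% (Wilson 95% interval 71.7 to 98.9), beside 91.6% of the YAP list. RNAPol2 overlapped 13, or 81.2% (57.0 to 93.4), beside 48.0% of the list. Myc overlapped 4, or 25% (10.2 to 49.5), beside 30.9%. For TEAD and Myc the interval contained the share of the list, and for RNAPol2 it did not. Placing the windows around gene starts may by itself raise the share at RNAPol2, here and for the TEAD peaks below. The comparison with the list therefore cannot show that RNAPol2 is unusually frequent at these peaks. Peaks of 1 window share a locus, so these intervals, and those for TEAD and Myc peaks below, treat as independent what is not. At Cyr61 the 8 YAP peaks that overlapped RNAPol2 lay on 4 RNAPol2 peaks. With summits required to lie within 250 bp, the RNAPol2 share was 43.8%, or 7 peaks, beside 31.2% of the list.

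By combination, 9 of the 16 YAP peaks held TEAD and RNAPol2 without Myc, a class with 20.2% of the YAP list. The single Ctgf peak was among them. So were the Cyr61 peaks of 20 at the start and of 61 at 53.5 kb upstream, though the TEAD peak under each overlapped Myc. The 9 are therefore not separate sites without Myc. The class with TEAD, Myc and RNAPol2 held 4 (26.5% of the list), that with TEAD alone 2 (41.2%) and that with no other factor 1 (6.96%).

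Of the 34 TEAD peaks, 12 overlapped YAP, or 35.3% (21.5 to 52.1), beside 18.7% of the TEAD list. The windows lie around genes chosen as known YAP targets, and that choice may by itself raise the share with YAP. The comparison with the list therefore cannot show that YAP is unusually frequent at these TEAD peaks. The same limit applies to the share of Myc peaks at YAP below. With RNAPol2 20 of the TEAD peaks overlapped, or 58.8% (42.2 to 73.6), beside 33.9%. Most of these were at Cyr61, where 15 of 18 TEAD peaks overlapped RNAPol2, and in the Ctgf and Ankrd1 windows alone the share was 31.2%, under that of the list. With summits within 250 bp it was 23.5%, beside 20.6% of the list. With Myc 9 overlapped, or 26.5% (14.6 to 43.1), beside 22.5%.

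The 9 Myc peaks all overlapped TEAD (70.1% to 100%), beside 69.4% of the Myc list. Of them 8 overlapped RNAPol2, or 88.9% (56.5 to 98), beside 88.2%. YAP was at 4, or 44.4% (18.9 to 73.3), beside 21.0%, and the interval contained the share of the list.

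**Figure D5:**
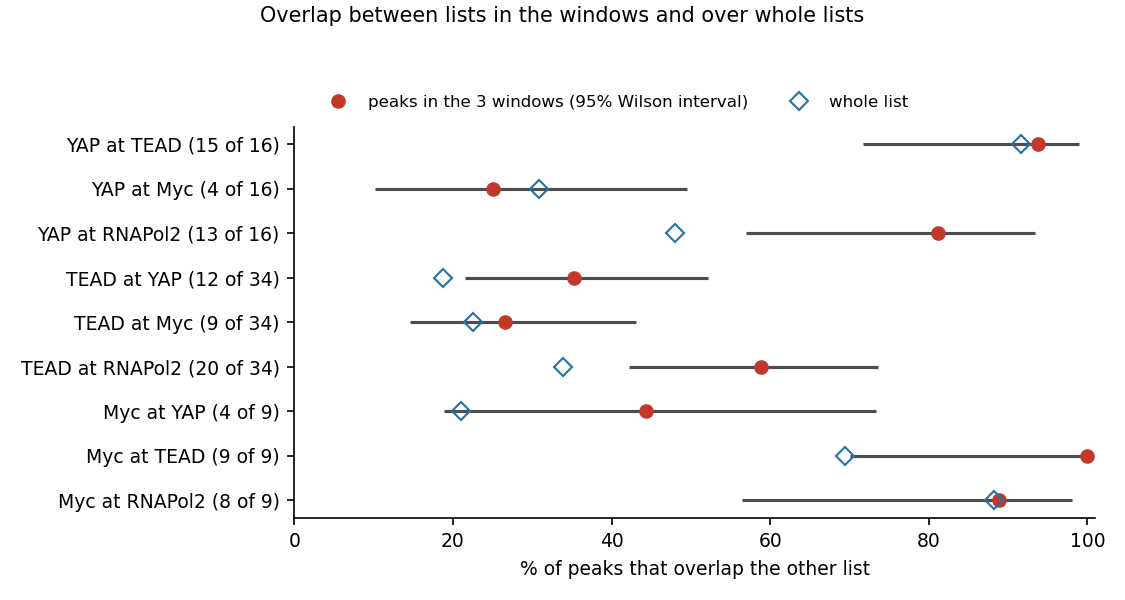
Percent of the YAP, TEAD and Myc peaks in the windows that overlap a peak of another list, with Wilson 95% intervals as bars, and the percent over the whole list. The interval stays above the whole list for YAP peaks at RNAPol2 (81.2% against 48.0%) and TEAD peaks at YAP (35.3% against 18.7%). It also does so for TEAD peaks at RNAPol2 (58.8% against 33.9%) and Myc peaks at TEAD (100% against 69.4%). The windows lie around the starts of genes chosen as known YAP targets, which may by itself raise the shares at YAP and at RNAPol2.

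Peaks clustered most around Cyr61. Within 100 kb of its start peak there were 8 other YAP peaks, a number that 7.51% of YAP peaks reached, and 17 other TEAD peaks, which 9% of TEAD peaks reached. Around the Ankrd1 start peak there were 5 other YAP peaks (21.1% of the list with as many) and 11 other TEAD peaks (31%). The medians of the lists were 2 for YAP and 8 for TEAD. Just beyond the Cyr61 window, at 145 kb from the start, a YAP peak of 93 at chr3:145167510-145168285 was higher than any YAP peak inside the windows. The YAP peak nearest outside the Ankrd1 window was 117 kb from the start, with a pileup of 22.

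Regions with the same set of lists were found elsewhere for each gene. Likeness in rank was the summed difference, over the lists, of the percent as high or higher. Peaks near the top of a list can differ by only a little in this percent, and Cyr61 was compared over 4 lists. The differences therefore cannot be compared between the genes. For Ctgf the nearest of 2070 regions was chr10:127930682-127931320, with pileups of 82 for YAP, 213 for TEAD and 325 for RNAPol2 and a difference of 0.359 points. The next was chr9:102628362-102629309, with 94, 206 and 338 (0.848 points). For the Cyr61 start the nearest of 2719 regions with all 4 lists, chr2:117936198-117936799, differed by 3.55 points. Its pileups were 55 for YAP, 183 for TEAD, 20 for Myc and 255 for RNAPol2, beside 66, 173, 20 and 374 at the Cyr61 start. For the distal Ankrd1 peak, chr11:119794521-119794862 differed by 3.18 points. These likenesses rest on 3 or 4 libraries and name no gene.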

How the data were processed

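ChIP-seq peak lists of 4 samples were used, with 1 sample per antibody, and the input sample, whose antibody field names an IgG, was not analysed here. For alignment and peak calling, the tools in the submitters' processing notes are MACS2 2.0.9, BWA 0.6.2 and SAMtools, and the build is mm9. Per the file headers, peaks were called on each sample alone at a cutoff of 1e-05 on the p-value, from 51 bp tags with at most 2 per position, against 1 control library of 60189064 tags whose identity is not given in the sources used here. The larger library was scaled to the smaller, and the local background came from windows of 1000 and 10000 bp. The ChIP libraries held 29528304 (YAP), 31770727 (TEAD), 20441605 (Myc) and 38345189 (RNAPol2) tags.

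The deposited values used were the pileup, a signal in tags at the summit, the fold enrichment, a ratio of that pileup to the local background, the −log10 p-value and −log10 q-value of each peak, and its position. Lists were kept whole and peaks ranked within their own list. A peak counted as at the start within 1 kb. With 1 sample per antibody no test was made and no p-value is given. The members, the gene list, the overlaps shown and the rule for like regions (same lists, smallest summed rank difference around the start, or the highest YAP peak for Ankrd1) were chosen with earlier results of these data known. The shares in the Ctgf and Ankrd1 windows alone and the alternatives for TEAD at RNAPol2 were added after seeing the data. The orientation of Ctgf is general knowledge, and that of Cyr61 and Ankrd1 comes from the promoter table. The gene table is of GRCm38.p6 and the files are mm9, so it served only for names and neighbours. The scripts ran under Python 3.11.15 with pandas 2.3.3, scipy 1.17.1, matplotlib 3.10.9 and numpy 2.4.6, and their overlap and rank steps were tested on simulated data.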

Additional observations from a re-analysis of the deposited data

How the results depend on the processing

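Replicates could not be left out, and no paired analysis was possible because each antibody has 1 sample. Counts were taken as moved beyond 1.5 times, and shares and ranks when the new value left the 95% Wilson interval of the main one, so that a rank can move by little. Each comparison set a value against the same value under 1 alternative setting, so a value was compared more than once. On this basis 38 comparisons of the main values moved and 53 did not. Among comparisons of the peak counts of single windows, the Myc and RNAPol2 ranks and the share of promoters with the motif, 28 moved and 24 did not. The cause was not tested. Some orders turned: YAP was higher at Cyr61 than at Ctgf by fold enrichment, TEAD at RNAPol2 fell under the list without Cyr61 (31.2% against 33.9%), and YAP at TEAD stood under the list with summits within 250 bp (75% against 83.6%) and without Cyr61 (85.7% against 91.6%). YAP at Myc was 14.3% without Cyr61. With −log10 q of at least 10 or with the stronger 50% of each list, the windows held 10 YAP peaks under both, 3 and 2 Myc peaks, and 17 RNAPol2 peaks under both. RNAPol2 peaks also numbered 17 within 50 kb of the starts. Both stricter lists put 100% of the 10 YAP peaks at TEAD (96.5% and 95.1% of the lists) and 0% at Myc (26.6% and 17.6%). The Ankrd1 start had a peak in 1 list in place of 3 under either stricter list or where the peak had to cover the start. The YAP peak there began 15 bp from the start, within the error of about 100 bp, so whether it covers the start cannot be told. By fold enrichment the highest YAP peak had 2.76% (Ctgf), 2.41% (Cyr61) and 15.5% (Ankrd1) of its list as high or higher, and TEAD 0.624%, 0.815% and 4.94%. By −log10 p the Cyr61 values were 2.76% for YAP and 0.865% for TEAD. Within the same chromosome they were 10.9% for YAP at Ankrd1 and, for TEAD, 0.817% at Cyr61 and 5.58% at Ankrd1. Among peaks that overlap RNAPol2 they were 3.14%, 6.35% and 18.7% for YAP and 0.571%, 2.36% and 9.16% for TEAD. With summits within 250 bp, RNAPol2 was at 43.8% of YAP peaks (31.2% of the list) and 23.5% of TEAD peaks (20.6%), and TEAD at RNAPol2 was 73.9% within 50 kb. With −log10 q of at least 10, there was 1 other YAP peak around Ankrd1 and 1 other TEAD peak around Ctgf, and within 50 kb Ankrd1 had 5 other TEAD peaks. The counting error of a pileup near 20 tags is wide, which limits the Ankrd1 start and most Myc peaks.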
